A study of Homo sapiens with 6 samples.

Results

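The genes of the autophagy core machinery and its cargo receptors were followed in MDA-MB-231GlnIND cells against parental MDA-MB-231 cells. The 39 genes were chosen by name for their known place in the pathway, and all 39 were found among the 28265 gene rows of the deposited count tables. By role, 9 belong to initiation and membrane supply, 8 to nucleation, 13 to conjugation and 8 to the cargo receptors, and 1, STX17, acts at fusion with the lysosome. MDA-MB-231 is a long-established line from a human breast cancer of the triple-negative type. GlnIND cells are its glutamine-independent derivative, kept for more than 6 weeks in RPMI without glutamine and with 10% dialysed fetal bovine serum, in 3 libraries. Parental cells grew in glutamine-replete RPMI with 10% undialysed serum, also in 3 libraries. Glutamine supply, type of serum and cell population differed together and cannot be told apart. The labels do not say whether GlnIND is a clone or whether each library is a culture of its own. The p-values therefore cover the spread among these 6 libraries, and that spread may be technical.

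Macroautophagy encloses cytoplasm in a double membrane that fuses with the lysosome. The ULK kinase complex, held down by mTORC1 and driven by AMPK, starts the process, and the lipid kinase complex around PIK3C3 and BECN1 marks the membrane that grows. A pair of ubiquitin-like conjugation reactions then fixes proteins of the ATG8 family, the LC3 and GABARAP proteins, to that membrane, where they bind receptors carrying cargo. Amino acid shortage is a classical trigger of the pathway, and much of its control lies in protein modification and turnover, which RNA counts do not show.

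PolyA RNA was sequenced to between 21276815 and 24594248 counts in GlnIND libraries and between 18256219 and 21741371 in parental libraries. Levels are given as CPM, the count relative to the library total after TMM composition factors. Each log2 fold change sets GlnIND over parental and was called at a Benjamini-Hochberg adjusted p under 0.05 in edgeR's quasi-likelihood test over 13949 genes. Of 6 markers listed as present in the line, VIM, CD44, EGFR, MSN and KRT18 averaged 104 CPM or more in both groups, and MSN was the only one of the 6 not called as changed. VIM was at 6073 CPM in GlnIND and 3976 CPM in parental cells, KRT18 at 104 and 284 CPM (log2 fold change -1.45, adjusted p = 2.04e-06) and SPARC at 1.69 and 0.555 CPM. ESR1, PGR and CDH1 were too low to be tested, but EPCAM, listed as low in the line, was at 2.22 CPM in GlnIND and 14.3 CPM in parental cells (log2 fold change -2.68, adjusted p = 3.26e-06), and ERBB2 at 63.6 and 36.1 CPM. Of 6 markers of other cell types, PTPRC, CD3E, DES and ALB were too low to be tested, while CD68 stood at 176 and 178 CPM and PECAM1 at 4.34 and 2.41 CPM in GlnIND and parental cells. One library stood apart: relative to its group mean, parental 1 had a median log2 deviation of -0.25 in the fifth of genes with the highest GC content and 0.12 in the fifth with the lowest. Parental 1 was the parental library farthest from the mean of the other two at 23 of the 39 genes, and its part in each result is given as the value without it where that changed a call.

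Autophagy genes moved in both directions. In GlnIND cells 15 of the 39 genes rose (38.5%) and 14 fell (35.9%), and 10 were not called. Of all tested genes 28.4% were called higher and 27.9% lower, 56.3% in all, against 74.4% of the autophagy genes. The shares of all tested genes were not matched to the 39 genes on expression level. The median log2 fold change was 0.05 over the 39 genes and 0.03 over all tested genes. Most changes were small. With glmTreat, which asks whether a change exceeds 0.5 on the log2 scale, 5 genes passed as higher (12.8%) and 2 as lower (5.13%), beside 12.1% and 9.21% of all tested genes. Higher past that mark were GABARAPL2, GABARAP, GABARAPL1, ATG2B and ATG2A, and lower were BNIP3 and STX17. The GlnIND libraries lay wholly above the parental ones at 17 genes (43.6%) and wholly below at 14 (35.9%), against 33.7% and 31.3% of all tested genes (65.0% in either direction). The lowest count of any of the 39 genes in a library was 42, so all passed the filter on low counts.

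How many genes stood on each side depended on the scaling of the libraries. Upper-quartile factors gave 18 of the 39 genes as higher and 9 as lower, beside 34.0% and 23.0% of all tested genes. Plain library totals gave 19 higher and 5 lower, beside 38.4% and 20.1% of all tested genes. Lower calls lost with library totals were those of ATG13, RB1CC1, UVRAG, AMBRA1, ATG5, ATG10, ATG12, MAP1LC3B and TAX1BP1 (adjusted p = 0.0573 to 0.585), and 5 of these, ATG13, AMBRA1, ATG5, ATG10 and ATG12, were lost with upper-quartile factors too (adjusted p = 0.0525 to 0.204). The median of all tested genes moved with the scaling, to 0.12 and 0.18, and that of the autophagy genes to 0.14 and 0.20. With a GC trend removed from each library, 18 were higher and 13 lower (29.2% and 31.1% of all genes). Single libraries mattered as well. Without GlnIND 2, 11 of the 39 genes were higher and 8 lower (all genes 22.9% and 23.2%), and without GlnIND 3, 10 were higher and 9 lower (22.9% and 23.3%). Without parental 1, 15 were higher and 14 lower (32.7% and 33.2%).

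**Figure D1:**
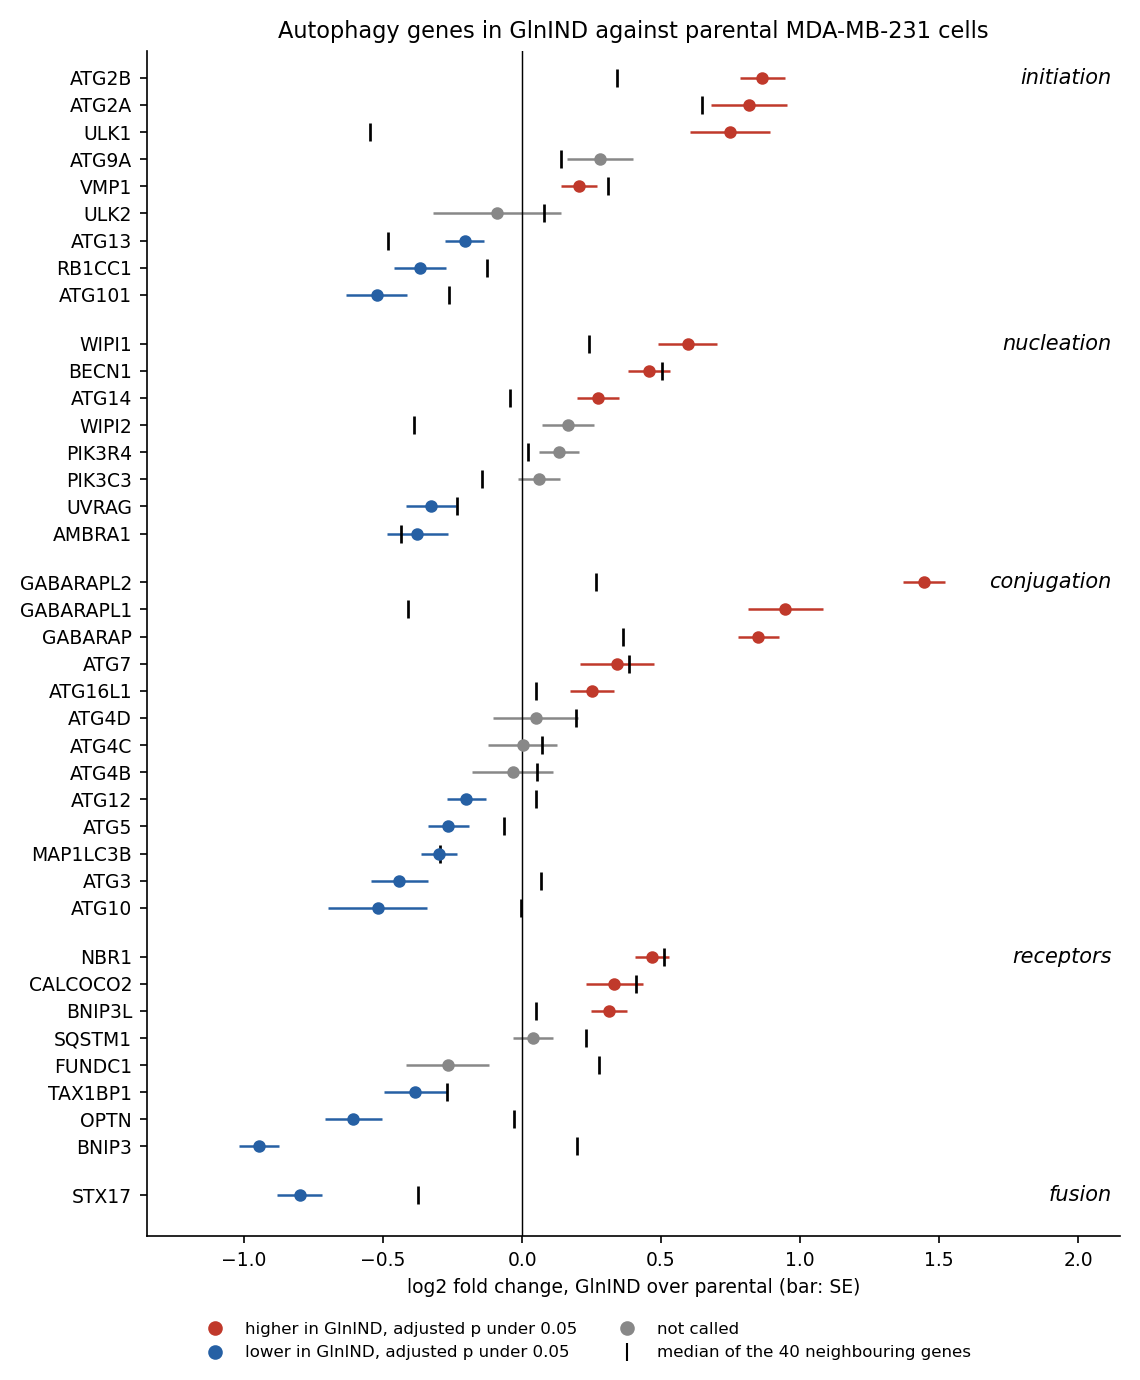
The x axis gives the log2 fold change of each of the 39 genes, GlnIND over parental, with its SE as a bar, and the genes run down the page by role. Red points are higher and blue points lower in GlnIND cells at an adjusted p under 0.05, grey points are not called, and the black tick is the median of the 40 neighbouring genes on the chromosome. GABARAPL2 lies farthest to the right at 1.45 and BNIP3 farthest to the left at -0.95.

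Promoter letters are shown for the 2 genes that held the CLEAR motif of lysosome and autophagy genes, ATG14 and ATG3, and for the genes that rose and fell most among the 39, GABARAPL2 and BNIP3. The windows hold the 250 bases before the RefSeq start, on GRCh38.p14, read 5′ to 3′ on the gene's strand, while the authors' counts used hg19. Capitals mark, on either strand, the CLEAR motif GTCACGTG, bound by the transcription factor TFEB, the E-box CACGTG and the hypoxia element core ACGTG. The CLEAR motif contains the E-box, and the E-box contains the core. The shorter motifs are marked also where they stand outside the longer ones, as in BNIP3 and GABARAPL2. ATG14, which rose, and ATG3, which fell, were the only 2 of 34 autophagy genes with a window that held GTCACGTG (5.9%), against 2.3% of all 27305 windows.
ATG14 (chr14:55411831-55412080, minus strand): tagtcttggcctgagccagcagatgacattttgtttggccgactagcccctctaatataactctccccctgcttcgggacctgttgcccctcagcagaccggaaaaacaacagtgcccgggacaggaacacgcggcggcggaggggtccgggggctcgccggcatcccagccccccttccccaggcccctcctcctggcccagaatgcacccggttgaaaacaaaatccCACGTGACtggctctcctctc
ATG3 (chr3:112561963-112562212, minus strand): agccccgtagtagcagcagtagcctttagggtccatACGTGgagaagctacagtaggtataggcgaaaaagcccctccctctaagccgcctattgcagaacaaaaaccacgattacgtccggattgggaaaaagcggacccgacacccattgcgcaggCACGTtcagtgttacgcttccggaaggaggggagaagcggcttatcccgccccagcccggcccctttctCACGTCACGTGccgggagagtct
GABARAPL2 (chr16:75566129-75566378, plus strand): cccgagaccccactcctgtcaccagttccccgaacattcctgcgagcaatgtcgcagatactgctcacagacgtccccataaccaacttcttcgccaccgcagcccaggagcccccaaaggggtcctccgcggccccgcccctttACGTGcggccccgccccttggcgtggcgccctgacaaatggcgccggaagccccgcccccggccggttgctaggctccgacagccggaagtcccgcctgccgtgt
BNIP3 (chr10:131981924-131982173, minus strand): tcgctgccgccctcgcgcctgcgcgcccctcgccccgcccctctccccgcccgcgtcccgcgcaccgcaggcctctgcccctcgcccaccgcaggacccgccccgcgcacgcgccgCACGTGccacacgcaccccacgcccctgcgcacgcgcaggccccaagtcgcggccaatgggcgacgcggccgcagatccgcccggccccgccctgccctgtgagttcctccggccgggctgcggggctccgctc

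Both windows with the CLEAR motif had it close to the start. The leftmost base of the match as printed was 21 bases before the start in ATG14, where the motif is on the reverse strand. In ATG3, with the motif on the forward strand, it was 20 bases before the start. BNIP3, a hypoxia-induced gene, held the E-box CACGTG, which contains ACGTG on both strands. The core ACGTG was in 10 of the 34 windows (29.4%) and in 18.7% of all windows. Those 10 genes were ATG3, ATG10, ATG12, ATG13 and BNIP3, which fell, ATG14, GABARAPL2, CALCOCO2 and VMP1, which rose, and ATG9A, which was not called. The FOXO motif TGTTTAC was in 1 window (2.9%, against 3.0% of all), that of CALCOCO2, and the amino acid response motif TGATGNAA in 0, against 3.2% of all. RB1CC1, UVRAG, ATG4D, BNIP3L and STX17 had no window in the table. A match is a description of letters and not a sign of binding.

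The initiation genes went both ways. Both ATG2 lipid transfer genes and the kinase ULK1 rose, while the partners of ULK1 in its complex, ATG13, RB1CC1 and ATG101, fell. Those 3 falls did not hold once the median of the 40 neighbouring genes was subtracted: RB1CC1 and ATG101 were not called (adjusted p = 0.0511 and 0.0683) and ATG13 was called higher (log2 fold change 0.27, adjusted p = 0.0107). ATG13 and RB1CC1 also lost their calls with library totals (adjusted p = 0.54 and 0.0573), and the rise of ATG2A was not called with the neighbour median subtracted (adjusted p = 0.357). Of the 9 genes 4 rose (44.4%), 3 fell (33.3%) and 2 were not called, beside 28.4% higher and 27.9% lower over all tested genes. ULK1, the kinase that starts autophagosome formation, was at 13.8, 15.4 and 13.7 CPM in GlnIND libraries 1 to 3, against 7.09, 10.1 and 8.47 CPM in parental libraries 1 to 3. The GlnIND libraries lay well clear of the parental ones, and the log2 fold change was 0.75 (SE 0.144, adjusted p = 0.00163). In bulk RNA a change in every cell and a change in some of the cells cannot be told apart. Its paralogue ULK2 was at 2.78, 2.91 and 2.61 CPM in the GlnIND libraries and 3.77, 2.86 and 2.18 CPM in the parental libraries, so the groups overlapped (log2 fold change -0.09, adjusted p = 0.76). Without parental 1, the highest of the 6, the ULK2 log2 fold change was 0.13.

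ATG101, which stabilises ATG13 in the complex, was at 27.8, 27.5 and 26.2 CPM in GlnIND libraries 1 to 3, against 32.9, 43.2 and 41.1 CPM in parental libraries 1 to 3. Every GlnIND value was below every parental one, and the gene fell by 0.52 on the log2 scale (SE 0.110, adjusted p = 0.00268). RB1CC1, the large scaffold also called FIP200, was at 111, 107 and 112 CPM in the GlnIND libraries and 164, 134 and 127 CPM in the parental libraries. Parental 1 was the highest library, and the log2 fold change was -0.37 (SE 0.094, adjusted p = 0.00793) and -0.25 without that library. ATG13, the adaptor between kinase and scaffold, was at 65.5, 69.00 and 64.9 CPM in the GlnIND libraries and 73.7, 80.6 and 75.95 CPM in the parental libraries. The groups did not overlap, but the difference was small at -0.21 (SE 0.070, adjusted p = 0.0299), and the call was lost without GlnIND 1, GlnIND 2, GlnIND 3 or parental 2 (adjusted p = 0.0561 to 0.109).

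ATG2A, a bridge-like protein that moves lipid into the growing membrane, was at 64.2, 63.3 and 59.9 CPM in GlnIND libraries 1 to 3, against 27.3, 37.2 and 42.1 CPM in parental libraries 1 to 3. Parental 1 was the lowest library, and the lowest GlnIND value was still above the highest parental one. The log2 fold change was 0.82 (SE 0.137, adjusted p = 0.000716), and 0.65 without parental 1. ATG2B, its paralogue, was at 64.5, 71.2 and 67.05 CPM in GlnIND libraries 1 to 3, against 39.2, 37.7 and 34.5 CPM in parental libraries 1 to 3. Here the spread within each group was small, and the gene rose by 0.86 on the log2 scale (SE 0.082, adjusted p = 2.11e-05). ATG9A, the scramblase carried on vesicles to the growing membrane, was at 64.7, 66.6 and 69.5 CPM in the GlnIND libraries and 44.02, 60.1 and 61.3 CPM in the parental libraries. Parental 1 was far below parental 2 and 3. The groups did not overlap, but the log2 fold change of 0.28 was not called (SE 0.119, adjusted p = 0.0674). It was 0.14 without parental 1, and it passed without parental 3 (adjusted p = 0.0341). VMP1, a scramblase of the endoplasmic reticulum that frees the new membrane, was at 190.1, 187 and 197 CPM in the GlnIND libraries and 177, 158 and 163 CPM in the parental libraries. It rose by 0.21 on the log2 scale (SE 0.066, adjusted p = 0.0229), a call lost without GlnIND 1, GlnIND 2, GlnIND 3, parental 2 or parental 3 (adjusted p = 0.0564 to 0.137).

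In the nucleation step the lipid kinase PIK3C3 was not called, while several of its partners were. Of 8 genes 3 rose (WIPI1, BECN1, ATG14), 2 fell (UVRAG, AMBRA1) and 3 were not called. Over all tested genes 28.4% were called higher and 27.9% lower. PIK3C3, the lipid kinase itself, was at 67.9, 72.9 and 65.6 CPM in the GlnIND libraries and 69.8, 63.1 and 64.9 CPM in the parental libraries, with overlapping groups and a log2 fold change of 0.06 (SE 0.076, adjusted p = 0.526). PIK3R4, its regulatory kinase-like subunit, was at 52.8, 50.03 and 50.2 CPM in the GlnIND libraries and 46.4, 47.1 and 45.9 CPM in the parental libraries. Its groups stood apart by a small margin, and the log2 fold change of 0.13 was not called (SE 0.072, adjusted p = 0.138). With the GC trend removed both were called higher, PIK3C3 at 0.23 (adjusted p = 0.0113) and PIK3R4 at 0.24 (adjusted p = 0.00991).

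BECN1, the scaffold shared by the complexes of this kinase, was at 95.5, 101 and 88.1 CPM in GlnIND libraries 1 to 3, against 66.8, 73.1 and 67.7 CPM in parental libraries 1 to 3. All GlnIND values exceeded all parental ones, and the log2 fold change was 0.46 (SE 0.077, adjusted p = 0.000733). ATG14 directs the complex to autophagosome formation and UVRAG to the endosomal branch, and these alternative partners went opposite ways. ATG14 was at 44.6, 44.96 and 47.8 CPM in the GlnIND libraries and 38.8, 37.1 and 37.7 CPM in the parental libraries, a log2 fold change of 0.27 (SE 0.076, adjusted p = 0.0115), and its call was lost without GlnIND 3 or parental 2 (adjusted p = 0.054 to 0.0615). UVRAG was at 31.1, 31.6 and 29.2 CPM in the GlnIND libraries and 39.6, 40.9 and 34.9 CPM in the parental libraries, a fall of 0.33 on the log2 scale (SE 0.090, adjusted p = 0.0114), lost without GlnIND 3 (adjusted p = 0.0574). In each case the groups did not overlap. With the median of the 40 neighbouring genes subtracted, ATG14 stayed called at 0.31 (adjusted p = 0.00735). UVRAG at -0.10 (adjusted p = 0.383) and BECN1 at -0.05 (adjusted p = 0.598) were then not called. The UVRAG call was lost with library totals too (log2 fold change -0.18, adjusted p = 0.117).

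AMBRA1, which binds BECN1 and links it to ubiquitin ligases, was at 21.2, 20.2 and 19.98 CPM in the GlnIND libraries and 23.00, 27.3 and 29.4 CPM in the parental libraries. Parental 1 was the parental library nearest to the GlnIND ones, and the log2 fold change was -0.38 (SE 0.110, adjusted p = 0.0146), lost without GlnIND 2 or GlnIND 3 (adjusted p = 0.0563 to 0.0583). WIPI1 and WIPI2 read the lipid made by the kinase. WIPI1 was at 19.3, 17.6 and 17.7 CPM in GlnIND libraries 1 to 3, against 11.8, 11.6 and 12.7 CPM in parental libraries 1 to 3. The GlnIND libraries were all higher, with a log2 fold change of 0.60 (SE 0.105, adjusted p = 0.000945). WIPI2, which recruits ATG16L1, was at 84.7, 85.3 and 78.4 CPM in the GlnIND libraries and 63.8, 78.1 and 79.5 CPM in the parental libraries, and GlnIND 3 lay below parental 3 (log2 fold change 0.17, adjusted p = 0.154).

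The RNA of the ATG8 family shifted towards its GABARAP members. GABARAP, GABARAPL1 and GABARAPL2 rose, while MAP1LC3B, the LC3 gene most used as a marker of autophagosomes, fell. GABARAPL2 was at 78.1, 76.2 and 73.1 CPM in GlnIND libraries 1 to 3, against 27.7, 26.6 and 29.2 CPM in parental libraries 1 to 3. Each GlnIND library had more than any parental library by a wide margin, and the gene was 2.72-fold higher, a log2 fold change of 1.45 (SE 0.077, adjusted p = 6.23e-07). GABARAPL2 was the only one of the 39 genes called with a change of more than 2-fold, where 9.84% of all tested genes were called higher and 5.26% lower by that much. GABARAPL1 was at 15.4, 17.8 and 18.6 CPM in GlnIND libraries 1 to 3, against 7.63, 9.83 and 9.46 CPM in parental libraries 1 to 3. The gap between groups was larger than the spread in either, and the log2 fold change was 0.95 (SE 0.135, adjusted p = 0.000272). GABARAP was at 183, 175 and 167 CPM in GlnIND libraries 1 to 3, against 91.7, 93.9 and 105 CPM in parental libraries 1 to 3. It too had no overlap between groups and rose by 0.85 on the log2 scale (SE 0.074, adjusted p = 1.23e-05).

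MAP1LC3B was at 81.5, 84.7 and 80.4 CPM in GlnIND libraries 1 to 3, against 102, 97.8 and 103 CPM in parental libraries 1 to 3. All GlnIND libraries were lower, by 0.30 on the log2 scale (SE 0.064, adjusted p = 0.00294). Under RLE factors, upper-quartile factors or plain library totals, the GABARAP genes stayed positive and MAP1LC3B negative, but the MAP1LC3B call was lost with library totals (log2 fold change -0.15, adjusted p = 0.069). It was lost too with the median of its 40 neighbouring genes subtracted (log2 fold change -0.01, adjusted p = 0.887). The share of counts of these 4 genes that fell on GABARAP, GABARAPL1 and GABARAPL2 does not depend on the scaling. It was 77.2%, 76.1% and 76.3% in GlnIND libraries and 55.4%, 57.1% and 58.2% in parental libraries. The groups did not overlap. The share was chosen after the values had been seen, so no test is given. Counts are not per length, so the shares do not rank the 4 genes. The near-identical rows MAP1LC3B2 and GABARAPL3 had 14 and 0 counts over the GlnIND libraries and 24 and 3 over the parental ones.

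**Figure D2:**
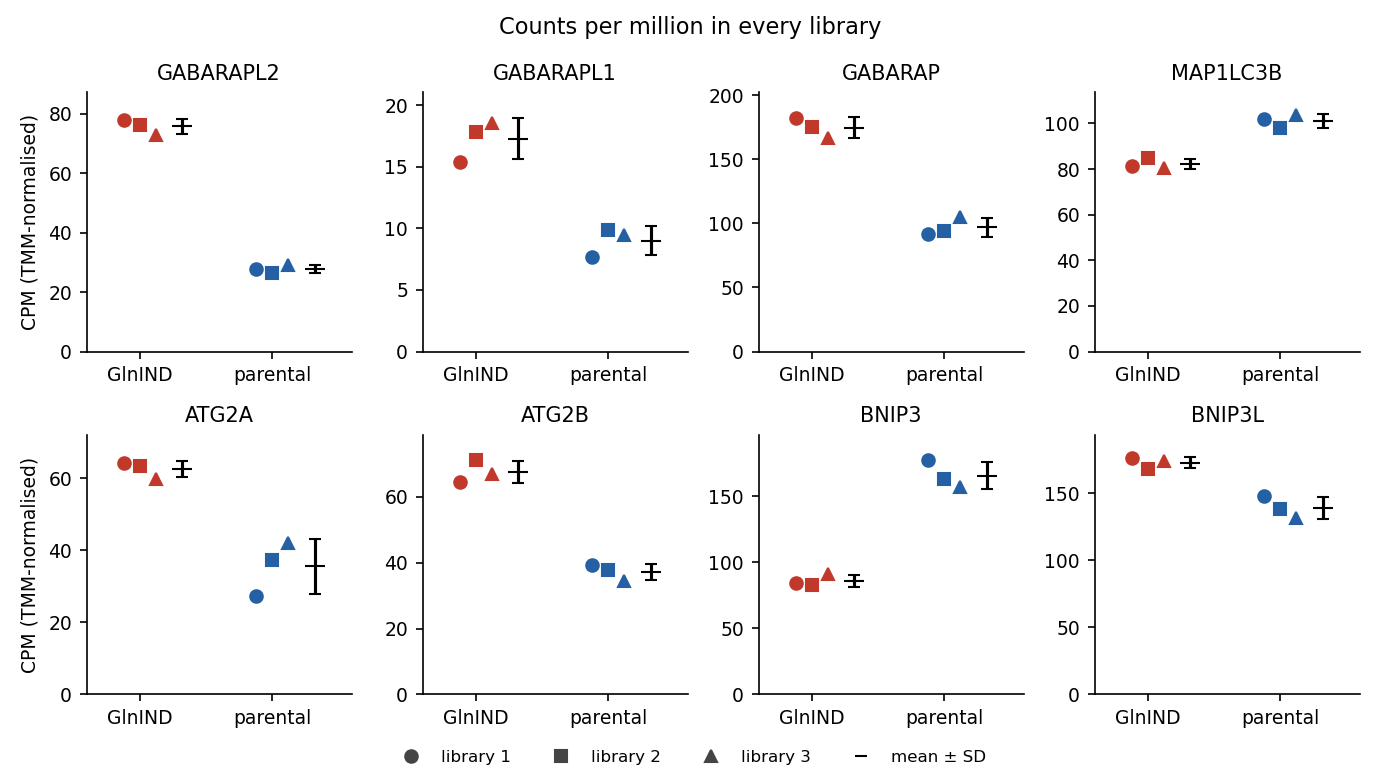
Each panel gives the TMM-normalised CPM of a gene on a linear y axis from 0, with the 3 GlnIND libraries left (red) and the 3 parental libraries right (blue), marker shapes for libraries 1 to 3 and the mean ± SD in black. GABARAPL2 stands at 73.1 to 78.1 CPM in GlnIND and 26.6 to 29.2 CPM in parental libraries, and BNIP3 and BNIP3L change in opposite directions.

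Among the conjugation enzymes and their targets, ATG7 and ATG16L1 rose and ATG3, ATG5, ATG10 and ATG12 fell. Over the 13 genes of this role, ATG8 family included, 5 rose, 5 fell and 3 were not called. Each direction held 38.5%, beside 28.4% higher and 27.9% lower over all tested genes. ATG7, the activating enzyme of both reactions, was at 28.9, 29.8 and 31.95 CPM in the GlnIND libraries and 19.1, 24.5 and 27.9 CPM in the parental libraries. The lowest GlnIND value was just above the highest parental one, and the log2 fold change of 0.34 was close to the threshold (SE 0.132, adjusted p = 0.0494). This call was lost without GlnIND 1, GlnIND 2, GlnIND 3 or parental 2 (adjusted p = 0.0872 to 0.158), and the value was 0.20 without parental 1. ATG3, which transfers ATG8 proteins to lipid, was at 69.6, 65.6 and 71.8 CPM in GlnIND libraries 1 to 3, against 109, 88.6 and 83.2 CPM in parental libraries 1 to 3. It was lower in every GlnIND library, at -0.44 on the log2 scale (SE 0.103, adjusted p = 0.00464), and at -0.32 without parental 1, its highest library. ATG10, the transfer enzyme for ATG12, was at 3.85, 3.62 and 3.30 CPM in GlnIND libraries 1 to 3, against 5.95, 5.15 and 4.31 CPM in parental libraries 1 to 3. Its level was low, the log2 fold change was -0.52 (SE 0.178, adjusted p = 0.0308), and the call was lost without GlnIND 1, GlnIND 2, GlnIND 3, parental 1 or parental 2 (adjusted p = 0.0551 to 0.108).

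ATG12, ATG5 and ATG16L1 form the complex that places ATG8 proteins on the membrane. ATG5 was at 46.5, 42.9 and 44.8 CPM in the GlnIND libraries and 52.8, 52.9 and 55.4 CPM in the parental libraries, a fall of 0.26 on the log2 scale (SE 0.074, adjusted p = 0.0121), lost without GlnIND 2 (adjusted p = 0.0626). ATG12, which is joined to ATG5, was at 59.2, 59.02 and 63.3 CPM in the GlnIND libraries and 68.5, 71.2 and 68.9 CPM in the parental libraries, at -0.20 (SE 0.069, adjusted p = 0.032) and lost without GlnIND 1, GlnIND 2 or parental 2 (adjusted p = 0.0836 to 0.118). Both were lower in all GlnIND libraries, and with the GC trend of the libraries removed neither was called (log2 fold changes -0.08 and -0.03, adjusted p = 0.379 and 0.75). ATG16L1, which anchors the complex, was at 44.4, 48.5 and 49.4 CPM in the GlnIND libraries and 40.6, 38.2 and 40.7 CPM in the parental libraries. It rose by 0.25 on the log2 scale (SE 0.080, adjusted p = 0.0222), and the call was lost without GlnIND 2, GlnIND 3 or parental 2 (adjusted p = 0.0858 to 0.0977) and with the replicate number as a block (adjusted p = 0.0557).

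The ATG4 proteases, which trim and release ATG8 proteins, did not pass the test. ATG4B was at 42.98, 43.5 and 37.6 CPM in the GlnIND libraries and 32.4, 44.4 and 50.2 CPM in the parental libraries. ATG4C was at 28.5, 26.8 and 31.1 CPM in the GlnIND libraries and 33.8, 28.1 and 24.5 CPM in the parental libraries. ATG4D was at 15.8, 15.7 and 15.5 CPM in the GlnIND libraries and 11.5, 15.8 and 18.03 CPM in the parental libraries. In all 3 the parental range enclosed the GlnIND range, with parental 1 at one end, and the adjusted p lay between 0.802 and 0.99. Without parental 1, ATG4B was called lower (log2 fold change -0.20, adjusted p = 0.0178), and with the GC trend removed ATG4C was called higher (log2 fold change 0.26, adjusted p = 0.0223).

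Among the cargo receptors the pair of related mitophagy receptors BNIP3 and BNIP3L moved in opposite directions. Of the 8 receptors 3 rose (NBR1, CALCOCO2, BNIP3L), 3 fell (OPTN, TAX1BP1, BNIP3) and 2 were not called. Each direction held 37.5%, beside 28.4% higher and 27.9% lower over all tested genes. BNIP3, an outer mitochondrial membrane protein induced by hypoxia, was at 84.2, 82.4 and 90.8 CPM in GlnIND libraries 1 to 3, against 177, 163 and 157 CPM in parental libraries 1 to 3. No GlnIND library came near the parental range, and the log2 fold change was -0.95 (SE 0.072, adjusted p = 5.47e-06). BNIP3L, also called NIX and known for clearing mitochondria from maturing red cells, was at 176, 168 and 174 CPM in GlnIND libraries 1 to 3, against 148, 138 and 132 CPM in parental libraries 1 to 3. It was higher in every GlnIND library, at 0.31 (SE 0.065, adjusted p = 0.00254). The ratio of BNIP3L to BNIP3 counts was 2.09, 2.04 and 1.92 in GlnIND libraries and 0.834, 0.847 and 0.84 in parental libraries. The ratio needs no scaling and did not overlap between groups; it was chosen after its values were seen and has no test. FUNDC1, a further mitophagy receptor, was at 16.1, 16.9 and 13.6 CPM in the GlnIND libraries and 22.6, 15.7 and 17.8 CPM in the parental libraries and was not called (log2 fold change -0.27, adjusted p = 0.152).

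The receptors of ubiquitinated cargo went both ways as well. SQSTM1, the best-known of them, was at 349, 354 and 345 CPM in GlnIND libraries 1 to 3, against 306, 360.1 and 355 CPM in parental libraries 1 to 3. The GlnIND libraries lay inside the parental range, and the log2 fold change was 0.04 (SE 0.073, adjusted p = 0.667). It was -0.04 without parental 1, and after removal of the GC trend SQSTM1 was called lower (log2 fold change -0.19, adjusted p = 0.0186). MRNIP, on the opposite strand, shares 39.8% of the exon bases of SQSTM1 and had 323 GlnIND and 85 parental counts beside 25311 and 19292 for SQSTM1.

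NBR1, which acts beside SQSTM1, was at 203, 209.9 and 202 CPM in GlnIND libraries 1 to 3, against 153, 142 and 149.9 CPM in parental libraries 1 to 3. All GlnIND values were above all parental ones, with a log2 fold change of 0.47 (SE 0.060, adjusted p = 0.000137). CALCOCO2, also called NDP52 and a receptor for bacteria and mitochondria, was at 126, 127 and 125 CPM in the GlnIND libraries and 119, 94.5 and 87.4 CPM in the parental libraries. Its log2 fold change of 0.33 (SE 0.104, adjusted p = 0.0206) lost its call without GlnIND 1, GlnIND 2, GlnIND 3, parental 2 or parental 3 (adjusted p = 0.0578 to 0.0996), and was 0.22 without parental 3. Parental 1 lay close to the GlnIND values. OPTN, a receptor activated by the kinase TBK1, was at 50.01, 55.4 and 52.1 CPM in GlnIND libraries 1 to 3, against 92.8, 75.4 and 71.7 CPM in parental libraries 1 to 3. The gene fell by 0.61 on the log2 scale with no overlap (SE 0.103, adjusted p = 0.00075), and by 0.49 without parental 1. TAX1BP1, a paralogue of CALCOCO2, was at 202, 200.2 and 197 CPM in the GlnIND libraries and 317, 237 and 228 CPM in the parental libraries. Parental 1 was far above all other libraries, the log2 fold change was -0.38 (SE 0.113, adjusted p = 0.0155) and -0.23 without it, and the call was lost without GlnIND 2 or GlnIND 3 (adjusted p = 0.0548 to 0.0583).

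STX17, the SNARE protein that brings the finished autophagosome to the lysosome, was at 26.98, 26.9 and 27.7 CPM in GlnIND libraries 1 to 3, against 49.96, 44.4 and 47.6 CPM in parental libraries 1 to 3. The GlnIND libraries were nearly equal and far below the parental ones, a fall of 0.80 on the log2 scale (SE 0.082, adjusted p = 3.37e-05).

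Many of these values lay close to those of neighbouring genes on the chromosome. For each gene the median log2 fold change of its 40 nearest tested genes (20 on each side, RefSeq order on GRCh38.p14) was taken as the local shift. Of the 15 genes that rose 12 had a positive local shift, and of the 14 that fell 11 had a negative one. Spearman's rho between a gene's log2 fold change and its local shift was 0.46 over the 39 genes and 0.41 over all tested genes, across genes of the same 6 libraries. Chromosome 17 held 7 of the 39 genes, of which 6 rose, 0 fell and 1 was not called, with local shifts of 0.08 to 0.51. Of all 818 tested genes on chromosome 17, 40.7% were called higher and 13.6% lower. There NBR1, BECN1, CALCOCO2 and VMP1 stood at 0.47, 0.46, 0.33 and 0.21, beside local shifts of 0.51, 0.50, 0.41 and 0.31. With the local shift subtracted they were at -0.05, -0.05, -0.09 and -0.11, and none was called (adjusted p = 0.191 to 0.598).

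The same step left other genes standing. GABARAPL2 was then at 1.17, GABARAP at 0.48, ATG2B at 0.51, WIPI1 at 0.35 and BNIP3 at -1.15 (adjusted p at most 0.0204). GABARAPL1 and ULK1 on chromosome 12 rose amid neighbours with medians of -0.41 and -0.55, and stood at 1.35 and 1.29 with that shift subtracted. STX17 stood at -0.43 (adjusted p = 0.00178) beside a local shift of -0.37. MAP1LC3B was at -0.01, ATG2A at 0.16, UVRAG at -0.10, TAX1BP1 at -0.12, ATG7 at -0.05 and AMBRA1 at 0.05, and none of the 6 was called (adjusted p = 0.357 to 0.887). ATG13, with neighbours at -0.48, turned to 0.27 (adjusted p = 0.0107). RB1CC1, ATG101 and ATG16L1 lost their calls by a smaller margin (adjusted p = 0.0511 to 0.0689), while WIPI2 was called higher at 0.55, FUNDC1 lower at -0.55 and SQSTM1 lower at -0.20. ATG14 and BNIP3L stayed called as higher and ATG3, ATG5, ATG10, ATG12 and OPTN as lower (adjusted p at most 0.0398). After the step 10 of the 39 genes were higher and 9 lower, against 23.4% and 25.8% of all genes with such a shift. DNA copy number was not measured, and its part in these shifts was not tested.

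**Figure D3:**
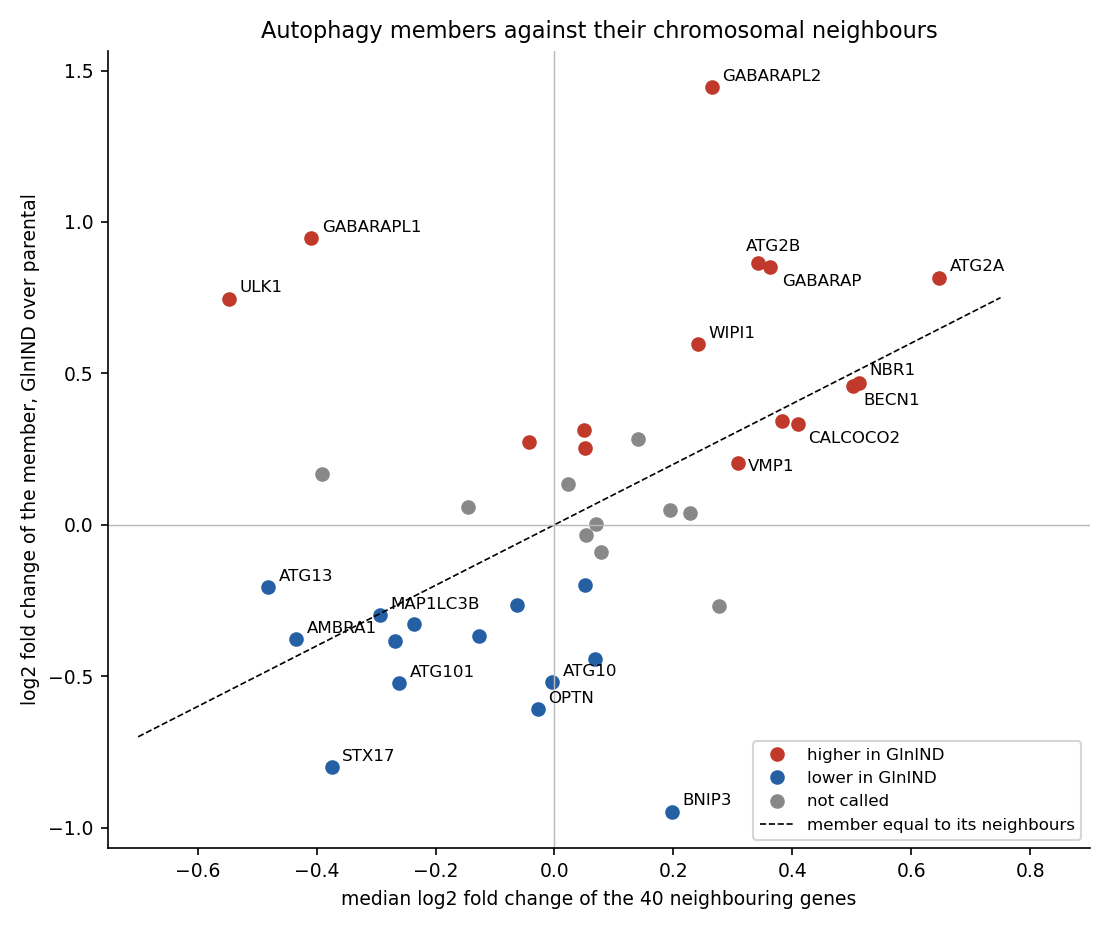
The y axis gives the log2 fold change of each of the 39 genes (GlnIND over parental) and the x axis the median log2 fold change of its 40 neighbouring genes, with red for higher, blue for lower and grey for not called. Points on the dashed line equal their neighbours, as NBR1, BECN1 and MAP1LC3B nearly do, and GABARAPL2, GABARAPL1, ULK1 and BNIP3 lie far from it.

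Some rows may share reads, since the strand setting of the counting was not given in the sources used here. In GENCODE 29, 11 of the 39 genes share exon bases with another row on the opposite strand, 32.2% of them in ATG7 (VGLL4), 28.5% in WIPI1 (ARSG), 23.5% in BECN1 (CNTD1) and 17.5% in ATG4D (KRI1). How far this touched the counts was not tested. The partner rows differed widely, from 8931 GlnIND and 7520 parental counts in KRI1, beside 1133 and 857 in ATG4D, to 116 and 60 in CNTD1, beside 6862 and 3929 in BECN1.

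Further genes of the pathway went both ways as well. Of 64 autophagy genes outside the 39, 58 were tested, of which 21 rose (36.2%), 11 fell (19.0%) and 26 were not called, beside 28.4% higher and 27.9% lower over all tested genes, with a median log2 fold change of 0.15. Another 6 were too low to test. Of these RUBCNL had 0 counts in every library. That allows up to 0.244 to 0.329 CPM at 6 counts (3 read pairs), counting error only. This floor is relative to plain library totals, without the TMM factors of the other levels. MAP1LC3A and MAP1LC3C averaged at most 0.335 CPM in either group. The largest change was in RETREG1, also called FAM134B, a receptor for turnover of the endoplasmic reticulum. RETREG1 was at 7.13, 8.82 and 7.75 CPM in GlnIND libraries 1 to 3, against 0.446, 0.572 and 0.779 CPM in parental libraries 1 to 3. It was 13.1-fold higher, a log2 fold change of 3.71 (SE 0.232, adjusted p = 1.66e-06), on 573 GlnIND and 34 parental counts. The 16 tested receptors of this list had 6 genes higher and 2 lower, and the lowest was TBK1, the kinase that acts on OPTN. TBK1 was at 37.6, 43.8 and 41.04 CPM in GlnIND libraries 1 to 3, against 86.9, 61.9 and 65.1 CPM in parental libraries 1 to 3, a fall of 0.81 on the log2 scale (SE 0.128, adjusted p = 0.000523). Its neighbours were at -0.43, and with that shift subtracted TBK1 was at -0.38 (adjusted p = 0.0327).

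TFEB and its relatives MITF and TFE3, transcription factors of lysosome and autophagy genes, were higher. TFEB, the best-studied regulator of the CLEAR motif, was at 2.64, 2.79 and 2.92 CPM in GlnIND libraries 1 to 3, against 0.397, 1.26 and 0.623 CPM in parental libraries 1 to 3. The level was low but the groups did not overlap, and the log2 fold change was 1.90 (SE 0.346, adjusted p = 0.00117). Its relatives MITF and TFE3, named after their values were seen, were at 87.2 ± 0.254 CPM and 65.3 ± 0.233 CPM in GlnIND cells, against 41.9 ± 2.65 CPM and 48.1 ± 4.45 CPM in parental cells (SD, n = 3 each), log2 fold changes of 1.06 (SE 0.074, adjusted p = 3.07e-06) and 0.44 (SE 0.084, adjusted p = 0.00147). With the local shift subtracted TFE3 was at -0.09 and not called (adjusted p = 0.38), and MITF stood at 0.94. Of the 11 regulators 4 rose (36.4%) and 2 fell (18.2%), beside 28.4% higher and 27.9% lower over all tested genes. The lowest was PRKAG1, a subunit of AMPK, at -0.41 (SE 0.075, adjusted p = 0.00122), and at -0.24 with the local shift subtracted (adjusted p = 0.0237).

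In the other roles ULK3, a kinase related to ULK1, was at 35.6, 32.2 and 32.8 CPM in GlnIND libraries 1 to 3, against 8.97, 18.6 and 17.7 CPM in parental libraries 1 to 3. It rose by 1.15 on the log2 scale (SE 0.220, adjusted p = 0.00149), though 1 of 6 initiation genes rose and 4 fell. Each of these roles holds few genes, and over all tested genes 28.4% were called higher and 27.9% lower. The lowest was EI24, a membrane protein of the endoplasmic reticulum, at -1.17 (SE 0.074, adjusted p = 1.74e-06) amid neighbours at -0.99, and at -0.19 with that shift subtracted (adjusted p = 0.0586). Of 7 nucleation genes 3 rose and 2 fell, from WDR45, a relative of WIPI1, at 0.77 (SE 0.116, adjusted p = 0.000368) down to BCL2, which binds and restrains BECN1, at -0.47 (SE 0.101, adjusted p = 0.00301). Neither kept its call with the local shift subtracted, WDR45 at 0.24 (adjusted p = 0.118) and BCL2 at 0.18 (adjusted p = 0.165). Of 6 conjugation genes 3 rose and 0 fell, from ATG16L2, the paralogue of ATG16L1, at 0.90 (SE 0.165, adjusted p = 0.00119) to TP53INP2, which binds ATG8 proteins, at 0.34 (SE 0.089, adjusted p = 0.00863). TP53INP2 was at 0.08 with the GC trend removed (adjusted p = 0.571). Of 12 fusion genes 4 rose and 1 fell. VPS39 and VPS11, both of the HOPS tethering complex that works with STX17, went apart at 0.62 (SE 0.093, adjusted p = 0.000389) and -0.76 (SE 0.080, adjusted p = 4.12e-05), and VPS11, with neighbours at -0.97, turned to 0.21 with that shift subtracted (adjusted p = 0.0575), while VPS39 was at 0.34 (adjusted p = 0.0135).

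**Figure D4:**
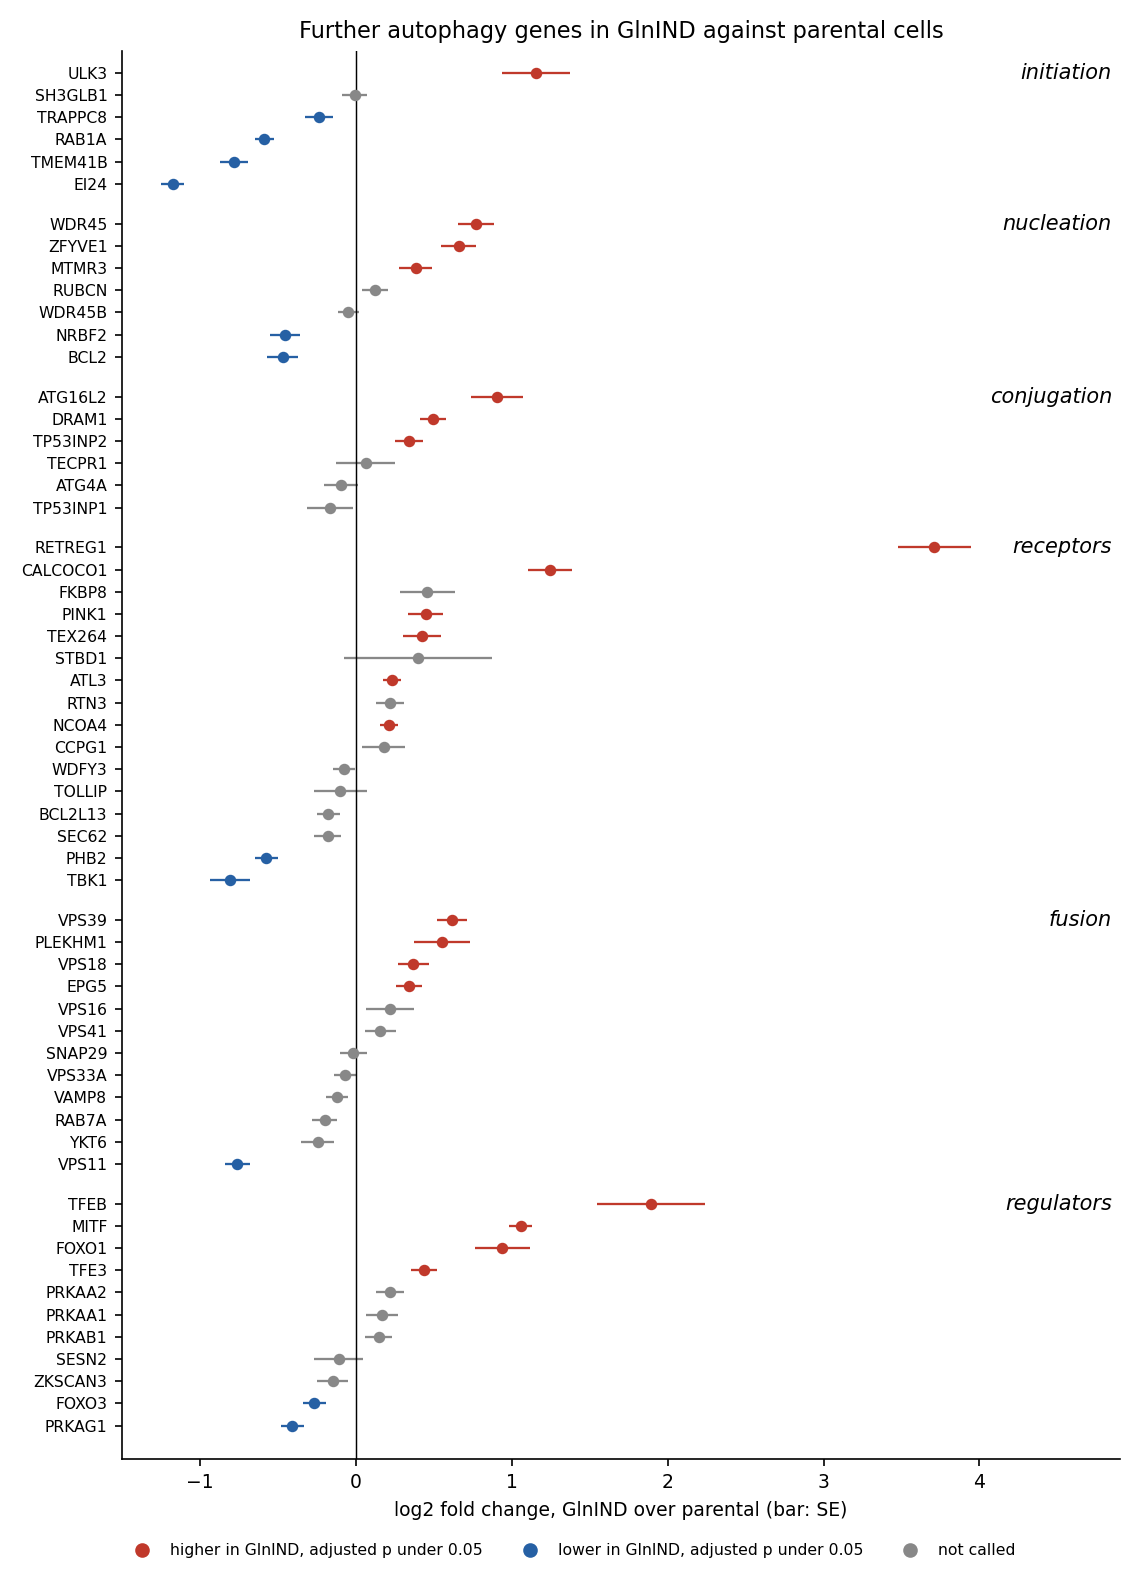
The x axis gives the log2 fold change of the 58 further autophagy genes that were tested, GlnIND over parental, with SE bars, by role down the page, and colours mark higher (red), lower (blue) and not called (grey). RETREG1 at 3.71 and TFEB at 1.90 lie farthest to the right, and EI24 at -1.17 farthest to the left.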

How the data were processed

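The authors deposited unnormalised counts for each gene symbol, in a table for every library and a joint matrix. The submitters' processing notes name FastQC, STAR, featureCounts and DESeq, with hg19 as the build. Versions, annotation, strand and the handling of multimapping reads are not given in the sources used here. The matrix held the same values with the names of replicates 1 and 3 exchanged within each group, so replicate numbers follow the tables. Low counts were mostly even (60.6% to 65.0% of values under 20), a pattern of both ends of read pairs being counted, so floors are set at 6 counts.

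The counts were tested with edgeR 4.0.16 in R 4.3.3 (glmQLFit, glmQLFTest, two-sided, group alone) after the default filterByExpr filter (minimum count 10, minimum total 15), with TMM factors, and p-values were adjusted over all 13949 tested genes. The tested genes held 99.94% of counts, and the common biological coefficient of variation was 9.8%. SE were computed from the F statistic. The scripts were tested on simulated counts. Alternatives were other scalings and filters, each library left out, the replicate block, DESeq2 1.42.0, limma-voom (limma 3.58.1), stricter thresholds and removal of the local shift, which was treated as known and so leaves its own error out. Removal of a GC trend per library (GENCODE 29 transcripts, 96% of tested genes) was added after the data had been seen. Genes, lists and tests were chosen with earlier results of these data known. All 39 genes are named. From the second list the highest and lowest called gene of each role with a mean of at least 1 CPM is named.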

Additional observations from a re-analysis of the deposited data

How the results depend on the processing

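Of the 29 called autophagy genes 7 higher ones kept direction and call in all 16 alternatives other than the stricter thresholds. They were ULK1, ATG2B, WIPI1, GABARAP, GABARAPL1, GABARAPL2 and BNIP3L. So did 4 lower ones (ATG3, OPTN, BNIP3, STX17). The share of all tested genes that did so was not computed, so these counts do not set the 39 genes apart. The counts that moved by more than 1.5 times were these. Past 0.5 on the log2 scale (glmTreat), 1683 genes were higher and 1285 lower over all genes, 5 and 2 among the 39, and 8 and 4 in the second list. The genes of the 39 called lower numbered 9 under upper-quartile factors, 5 under plain library totals and 7 at an adjusted p under 0.01. They numbered 9 with the local shift removed, 8 without GlnIND 2 and 9 without GlnIND 3. Of all tested genes 27.9% were called lower at an adjusted p under 0.05, and a smaller share at one under 0.01. The other counts did not move by more than 1.5 times with 1 library left out. The full ranges were then 3189 to 4565 genes higher and 3241 to 4630 lower. They were 10 to 15 and 8 to 14 among the 39, and 18 to 26 and 9 to 16 in the second list.

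Signs turned as follows. With the local shift removed ATG13 stood at 0.27, VMP1 at -0.11, BECN1 at -0.05, AMBRA1 at 0.05, ATG4C at -0.08, ATG4D at -0.15, ATG7 at -0.05, SQSTM1 at -0.20, NBR1 at -0.05, CALCOCO2 at -0.09, BCL2 at 0.18, VPS11 at 0.21 and TFE3 at -0.09. With upper-quartile factors and library totals ULK2 was at 0.003 and 0.07 and ATG4B at 0.06 and 0.12. ATG4C was at -0.02 with RLE factors and with DESeq2 and at -0.001 without a filter. With the GC trend removed ATG4D was at -0.21 and SQSTM1 at -0.19. With 1 library left out ULK2 ranged from -0.29 to 0.13, ATG4B from -0.20 to 0.09, ATG4C from -0.12 to 0.13, ATG4D from -0.12 to 0.18 and SQSTM1 from -0.04 to 0.07. The causes were not tested.

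The labels do not say whether a replicate number shared by the groups marks a shared culture or day. Between libraries of the same number the correlations of deviations from the group mean were -0.06, 0.03 and -0.04, which cannot decide this. With the replicate number as a block 15 of the 39 genes were higher and 12 lower. Over all tested genes both shares were then below the 28.4% higher and 27.9% lower found without the block. ATG13 (adjusted p = 0.0621), ATG12 (0.0789) and ATG16L1 (0.0557) lost their calls and ATG9A gained one (0.0436).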
